A study of Mus musculus with 3 samples.

Results

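The 44 mouse collagen genes were examined in RNA of 3 control thymi. They are all protein-coding genes whose symbol in GENCODE release M21 has the form Col, a number, a and a number, matched by Ensembl identifier. They are 44 of the 52636 genes counted and 44 of the 21896 protein-coding genes counted, and each of them had at least 1 read in every library. The study set lymphomas that lack the transcriptional repressor Cic (capicua) against normal thymus of control littermates; the lymphomas are not analysed here. All 3 control mice were C57BL/6, carried the genotype given as Cic flox/flox + TAM and had received tamoxifen, an oestrogen receptor ligand used to switch on inducible recombinases. The labels give no age, no sex and no Cre driver for them. They name 3 replicates but not the animal behind each, so p-values speak only of how far these samples differ from each other, part of which may be technical. Polyadenylated RNA was sequenced with strand kept, and the reads assigned to genes numbered 30414788, 28587087 and 25408442 in thymus 1, 2 and 3. All 8 thymocyte markers and all 9 thymic epithelium markers examined had reads in every library, with summed levels of 10226 to 10818 and of 2044 to 2205 CPM (reads of a gene per 1000000 assigned reads, with TMM scaling).

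Collagens are secreted or membrane-bound proteins built from chains that wind around each other into a triple helix. The winding needs a glycine at the start of each triplet of residues, so the coding sequence of a helix repeats a codon that starts with GG (GGN, glycine) followed by a pair of other codons. Fibrillar collagens assemble into the fibres of connective tissue, collagen IV forms the sheet-like network of basement membranes, collagen VI forms beaded filaments, and the FACITs (fibril-associated collagens with interrupted triple helices) decorate fibre surfaces. In the thymus such proteins lie in the capsule, the septa, the vessel walls and the basement membranes around them, and they are made mostly by mesenchymal, vascular and epithelial cells rather than by thymocytes. In RNA of a whole organ, fewer cells of a type and less RNA per cell cannot be told apart.

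The repeat sets the classes apart at the sequence level. One coding exon of 54 bases, holding 6 repeats with the GGN codons in capitals, is shown for each of the 5 fibrillar collagens with the highest CPM, because exons of this length recur throughout the fibrillar genes. They are from Col27a1 (GRCm38, chr4:63297811-63297864, plus strand), Col11a2 (chr17:34057620-34057673, plus), Col3a1 (chr1:45334761-45334814, plus), Col5a2 (chr1:45403116-45403169, minus) and Col1a2 (chr6:4524117-4524170, plus), taken from the GENCODE M21 transcripts.
Col27a1: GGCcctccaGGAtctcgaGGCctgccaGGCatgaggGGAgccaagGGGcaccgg
Col11a2: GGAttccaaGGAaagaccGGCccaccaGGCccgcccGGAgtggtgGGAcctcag
Col3a1: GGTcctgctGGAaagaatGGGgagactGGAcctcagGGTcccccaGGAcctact
Col5a2: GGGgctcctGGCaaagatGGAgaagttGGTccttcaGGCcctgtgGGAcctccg
Col1a2: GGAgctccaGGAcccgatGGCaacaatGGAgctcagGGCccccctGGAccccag
In fibrillar collagens the glycine repeat runs on almost without a break, with a longest run of 216 to 344 repeats and a median of 338 over the 11 genes. In collagen IV it is interrupted, and the longest run was 39 to 66 repeats over the 6 genes. The stretches below lie within 1 coding exon each and show such a break, with 4 repeats on either side of 2 further codons in Col4a1 (chr8:11235132-11235209, minus strand) and of 4 further codons in Col4a2 (chr8:11415955-11416038, plus strand).
Col4a1: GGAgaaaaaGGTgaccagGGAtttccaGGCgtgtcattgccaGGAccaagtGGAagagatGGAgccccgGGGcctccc
Col4a2: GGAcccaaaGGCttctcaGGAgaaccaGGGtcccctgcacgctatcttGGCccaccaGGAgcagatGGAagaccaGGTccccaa
Of the distinct coding segments annotated in collagen genes, 470 of 2098 (22.4%) were exactly 54 bases long, against 1163 of 240566 (0.483%) in the other protein-coding genes. Within the longest coding transcript of each gene, the share of 54-base segments was 47.0% in fibrillar collagens, 25.2% in FACIT and FACIT-like collagens and 4.05% in collagen IV. The 2 multiplexins, whose helices are broken into short pieces, had longest runs of 30 repeats each. Reads that fit more than 1 gene are not counted. At most 4.88% of the 50-base stretches of a collagen gene, in Col9a3, were also found in another gene's transcripts, on either strand. Such a match includes plain overlap with a gene on the opposite strand, as Tcfl5 overlaps Col9a3 and C430014B12Rik overlaps Col4a3. Reads in such an overlap can still be assigned by strand, so these shares do not measure reads lost to the repeat. Shares above 3% were found for Col4a3 (4.66%), Col6a6 (3.70%) and Col6a5 (3.42%) as well. No overlapping gene was found for Col6a5, and whether reads were lost at its shared stretches was not tested.

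The plot of repeat length against level shows that long uninterrupted repeats occurred both in high and in low collagens. Col11a2 and Col11a1 both have 338 repeats in a row. Yet they were the highest and the lowest fibrillar collagen with all annotated exons as the length.

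**Figure D1:**
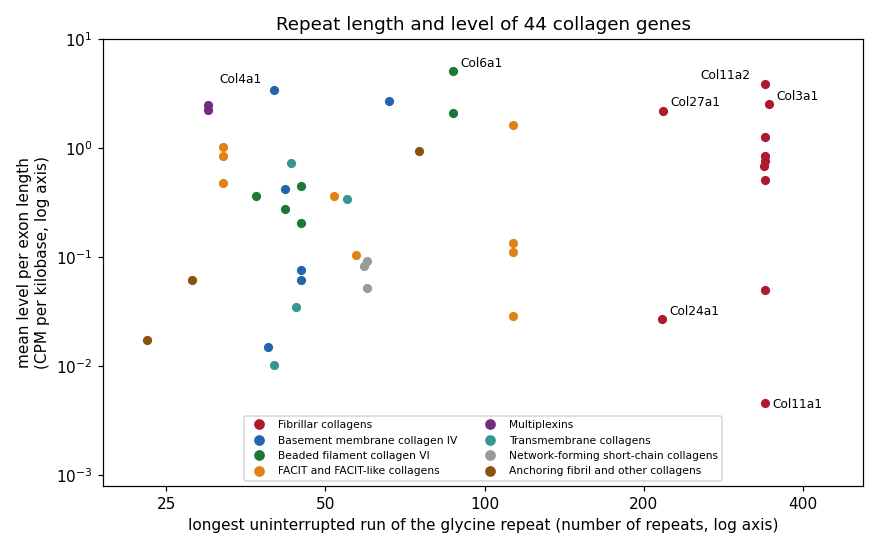
Mean level per exon length (CPM per kilobase, log axis, n = 3) against the longest uninterrupted run of the glycine repeat (number of repeats, log axis) for the 44 collagen genes, 1 point per gene, coloured by class. The fibrillar genes lie at 216 repeats or more, with Col11a2 near the top and Col11a1 at the bottom.

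The collagens together had 287, 317 and 289 CPM in thymus 1, 2 and 3, a mean of 298 ± 16.6 CPM (SD, n = 3). Set against Rag1, the recombinase gene of immature thymocytes, the sum was 0.0685, 0.0818 and 0.0698 of its level in thymus 1, 2 and 3. The level was concentrated in few genes: the 5 highest held 42.7% of the summed mean, the 10 highest 69.4% and the 20 highest 91.8%. Of the 44 genes, 11 reached 10 CPM in every library, 16 reached 1 CPM in every library but not 10, 16 were under 1 CPM in every library, and Col19a1 lay on both sides of 1 CPM. In all, 27 of 44 collagens (61.4%) reached 1 CPM in every library, against 12778 of 21896 protein-coding genes (58.4%). At 10 CPM or more in every library stood 25% of the collagens, against 42.3% of protein-coding genes. The edgeR filter on low counts kept 33 of the 44 collagens for tests, and those that failed it were Col8a2, Col9a2, Col28a1, Col10a1, Col22a1, Col24a1, Col13a1, Col4a3, Col26a1, Col25a1 and Col11a1.

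**Figure D2:**
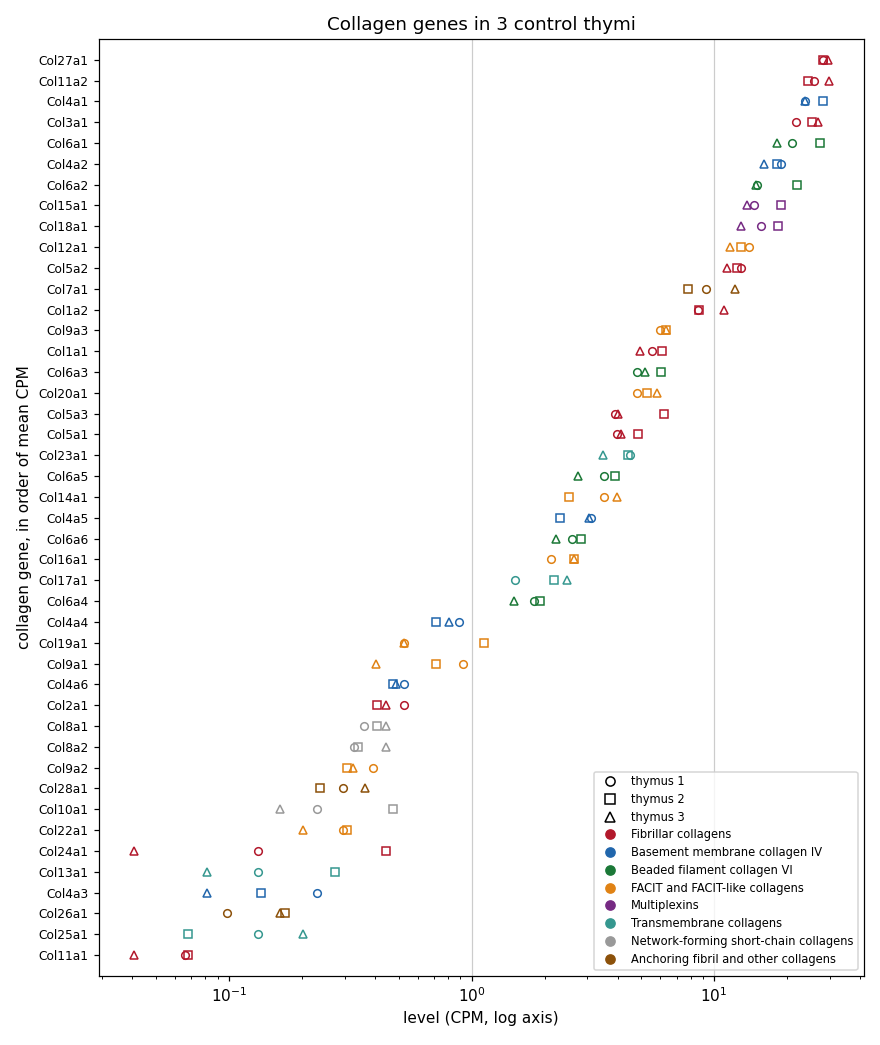
Level of each of the 44 collagen genes (CPM, log axis) in thymus 1, 2 and 3, 1 symbol per library, in order of mean CPM and coloured by class, with grey lines at 1 and 10 CPM. The 11 genes at 10 CPM or more in every library include fibrillar, collagen IV, collagen VI, FACIT and multiplexin genes.

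Fibrillar collagens were the largest class by reads, with 111, 117 and 122 CPM in thymus 1, 2 and 3 (117 ± 5.23 CPM, 39.2% of the collagen sum). CPM grows with the length of a gene, so levels of different genes are compared per kilobase of exon, and an order by CPM is an order of reads. Per kilobase the class held 32.2% of the sum. Col27a1 (ENSMUSG00000045672), whose product forms thin fibrils in cartilage and developing organs, had the most reads of all collagens at 28.2, 28.1 and 29.6 CPM in thymus 1, 2 and 3. These values lie within 1.06-fold of each other, and its coefficient of variation (SD over mean) of 2.99% was the lowest of the 44. The gene lies on chromosome 4 from 63214004 to 63334991 (GRCm38, plus strand) and has 13022 bases of exon. Per kilobase of all these exons it had rank 8, at 2.20 ± 0.0658 CPM per kilobase (SD, n = 3). Its longest annotated transcript has 7612 bases, and with that kind of length it stood higher in the order.

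Col11a2 (ENSMUSG00000024330), a chain of collagen XI that is best known from cartilage, had 25.9, 24.4 and 29.7 CPM in thymus 1, 2 and 3. It averaged 3.88 ± 0.396 CPM per kilobase of all annotated exons, the highest of the fibrillar class. With the longest annotated transcript as the length (6048 bases, and 5564 for Col3a1), it was about level with Col3a1. The Col11a2 gene has 6874 bases of exon between 34039437 and 34066685 of chromosome 17 (plus strand). Its usual partner chains had few reads. Col11a1 had 2, 2 and 1 reads, at or under the 3-count limit in each library (0.0985 to 0.122 CPM), and Col2a1, which codes for the main collagen of cartilage and in modified form is also part of collagen XI, had 16, 12 and 11 reads. Per kilobase, Col11a2 was at least 443-fold higher than Col11a1 in every library, with Col11a1 set at 3 counts per library, and 78.8 ± 11.7 times as high as Col2a1. With the longest annotated transcript as the length these were at least 303-fold and 49.4 ± 7.33 times. The 7 cartilage markers summed to 14.1 ± 0.956 CPM, led by Sox9 (5.59 CPM), Acan (5.09 CPM) and Comp (1.96 CPM), with Matn3 at or under 3 counts.

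Col11a2 starts 1038 bases downstream of the end of Rxrb, a nuclear receptor gene on the same strand with 93.4 ± 1.07 CPM. The RefSeq start of Col11a2 lies in this interval, and the 100 bases before it (GRCm38.p6, chr17:34039038-34039137, plus strand, from RefSeq) are shown because of this neighbour, with a GC box read on the minus strand, CCGCCC, in capitals.
Col11a2: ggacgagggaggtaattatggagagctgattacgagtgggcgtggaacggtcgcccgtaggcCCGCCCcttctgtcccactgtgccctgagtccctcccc
A neighbour of this kind, namely a gene on the same strand with a mean of 1 CPM or more that ends within 10 kb upstream, was found for 5 of 44 collagens (11.4%), against 3249 of 21896 protein-coding genes (14.8%). The others were Col9a3 with Ogfr 1954 bases away (107 CPM), Col7a1 with Uqcrc1 3963 bases away (147 CPM), Col20a1 with Arfgap1 4009 bases away (69.2 CPM) and Col23a1 with Clk4 8154 bases away (218 CPM). This description was chosen after the values were seen. Whether transcripts that read on past the end of a neighbour add to the collagen counts was not tested. These 5 collagens summed to 52.0 ± 4.80 CPM, and the other 39 to 245.6 ± 19.98 CPM. Col20a1 is also overlapped at its start by BX649560.1, an annotated transcript on the same strand with 18.7 ± 0.330 CPM. Of the 44 collagens, 35 had an entry in the RefSeq promoter table; Col1a1, Col2a1, Col12a1, Col14a1, Col4a3, Col5a2, Col9a3, Col22a1 and Col26a1 were not matched. In the 250 bases before the start, on both strands, a GC box (GGGCGG) was found in 22 of 38 collagen windows (57.9%), against 32.7% of all 32851 windows in the table. TATAAA was found in 13.2% of the collagen windows against 12.4% of all, and CCAAT in 34.2% against 33.8%. A match describes the letters only.

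Col3a1 (ENSMUSG00000026043; chromosome 1, 45311538 to 45349706, plus strand), the chain of collagen III, which forms the fine reticular fibres of lymphoid organs, had 21.7, 25.3 and 26.8 CPM in thymus 1, 2 and 3. Collagen I is the main collagen of skin and bone. Its Col1a2 chain had 8.57, 8.65 and 10.9 CPM, with thymus 3 above the other thymi, and its Col1a1 chain had 5.55, 6.09 and 4.94 CPM, with thymus 3 below them. Per kilobase, Col3a1 was 3.34 ± 0.325 times Col1a2 (SD over 3 libraries), and with the longest annotated transcript as the length of each gene it was 2.53 ± 0.247 times. The usual collagen I protein holds a pair of Col1a1 chains for each Col1a2 chain, while the per kilobase ratio of Col1a1 to Col1a2 was 1.23, 1.33 and 0.856 in thymus 1, 2 and 3. With the longest transcript as the length the mean ratio was 0.542 ± 0.120, on the other side of 1.

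Collagen V, which starts fibrils and sets their diameter, was led by Col5a2 per kilobase. This chain had 12.9, 12.4 and 11.3 CPM in thymus 1, 2 and 3, against 3.97, 4.83 and 4.13 CPM for Col5a1 and 3.91, 6.20 and 4.01 CPM for Col5a3. Per kilobase, Col5a1 was 0.401 ± 0.0474 and Col5a3 0.543 ± 0.143 of Col5a2. Col5a3, the chain found in fewer tissues, was highest in thymus 2, where it was 1.59 times its lowest library. The remaining fibrillar gene, Col24a1, had 4, 13 and 1 reads.

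Collagen IV had 47.4, 49.8 and 44.3 CPM in thymus 1, 2 and 3 (47.2 ± 2.79 CPM, 15.8% of the collagen sum). Most of it came from Col4a1 and Col4a2, the chains of the form found in almost every basement membrane. Col4a1 had 23.8, 28.0 and 23.7 CPM and Col4a2 had 18.8, 18.2 and 16.1 CPM. The genes lie head to head on chromosome 8, where Col4a1 (minus strand) begins at 11312826 and Col4a2 (plus strand) at 11312805, and are transcribed from a shared promoter region. Per kilobase the ratio of Col4a1 to Col4a2 was 1.12, 1.36 and 1.31, a mean of 1.26 ± 0.128, while the protein holds a pair of Col4a1 chains for each Col4a2 chain. The ratio was above 1 in each thymus.

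The other collagen IV chains had 0.0149 to 0.420 CPM per kilobase on average, against 3.37 for Col4a1 and 2.68 for Col4a2. Col4a5 and Col4a6, which also lie head to head and combine in the basement membranes of smooth muscle and some epithelia, had 3.12, 2.32 and 3.04 CPM and 0.525, 0.477 and 0.486 CPM. Per kilobase Col4a5 was 6.74 ± 0.867 times Col4a6. Col4a3 and Col4a4, which join Col4a5 in the kidney filter, had 7, 4 and 2 reads and 27, 21 and 20 reads. Col4a3 and Col4a4 are head to head as well, and their ratio was 0.195 ± 0.0850 per kilobase, with Col4a3 near the 3-count limit.

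The plot of chain levels shows these pairs beside the other multi-chain types.

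**Figure D3:**
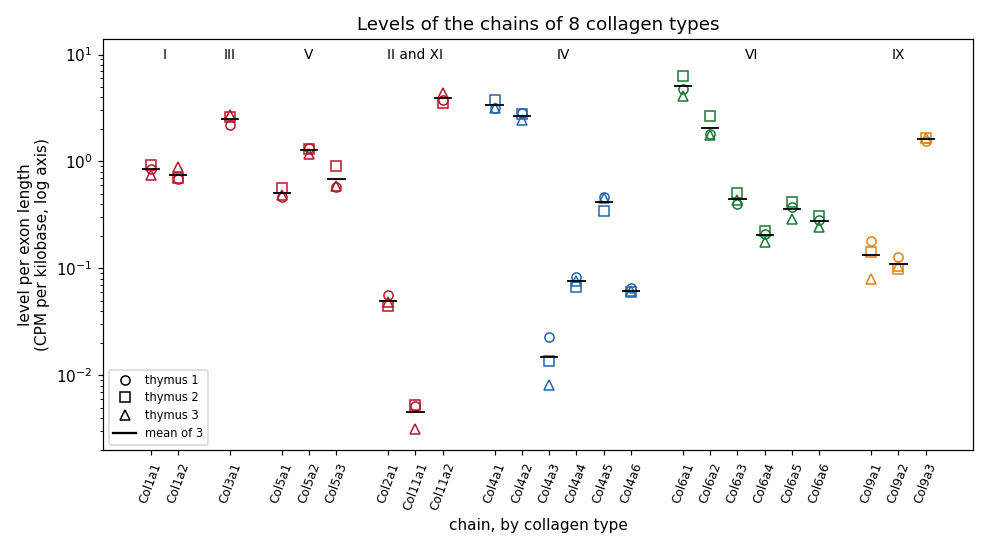
Level per exon length (CPM per kilobase, log axis) of the chains of collagens I, III, V, II and XI, IV, VI and IX in thymus 1, 2 and 3, 1 symbol per library, with the mean of 3 as a bar. Col11a2 and Col9a3 stand far above their partner chains, and Col4a1 and Col4a2 far above the other collagen IV chains.

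Collagen VI, which surrounds fibroblasts, muscle and fat cells and anchors basement membranes, had 48.7, 64.1 and 44.6 CPM in thymus 1, 2 and 3 (52.5 ± 10.3 CPM, 17.6% of the collagen sum and 21.3% per kilobase). Col6a1 (ENSMUSG00000001119) had 640, 804 and 447 reads (22.2 ± 4.74 CPM) and was the highest collagen per kilobase, at 5.06 ± 1.08 CPM per kilobase. Col6a2 had 14.97, 22.0 and 14.9 CPM. Thymus 2 was the highest library for both, and they kept a ratio per kilobase of 2.67, 2.37 and 2.32. With the longest transcript as the length the mean ratio was 1.54 ± 0.120. Both genes lie on the minus strand of chromosome 10, Col6a1 from 76708792 to 76726168, with 85162 bases between them. Col6a3, the usual partner of both in the filament, had 4.79, 6.06 and 5.19 CPM, which is 0.219 ± 0.0257 of Col6a2 per kilobase. The alternative partner chains Col6a4, Col6a5 and Col6a6 lie side by side on chromosome 9. Per kilobase Col6a5 was 0.809 ± 0.129 of Col6a3. Mean levels were 0.361 ± 0.0626 CPM per kilobase for Col6a5, 0.278 ± 0.0329 for Col6a6 and 0.204 ± 0.0249 for Col6a4. Every chain of collagen VI reached 1 CPM in all 3 libraries.

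The multiplexins are basement membrane collagens that carry sugar side chains. Col15a1 had 14.6, 18.9 and 13.7 CPM in thymus 1, 2 and 3, and Col18a1, whose end is cut off as endostatin, had 15.6, 18.4 and 12.9 CPM. Both were highest in thymus 2 and lowest in thymus 3, and the difference between their mean levels (2.48 ± 0.441 and 2.23 ± 0.391 CPM per kilobase) was smaller than the SD of either over the thymi.

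Among the FACIT and FACIT-like collagens, which summed to 32.2 ± 0.298 CPM, Col12a1 was the highest by reads, at 13.9, 13.0 and 11.7 CPM in thymus 1, 2 and 3. Its exons span 15228 bases, and per kilobase of all exons it stood below Col9a3 and Col20a1. With the longest annotated transcript as the length (11511 bases, and 5012 for Col20a1), it stood below Col9a3 only. Col9a3, a chain of the cartilage FACIT collagen IX, had 5.97, 6.33 and 6.32 CPM, and Col20a1 had 4.79, 5.31 and 5.79 CPM. As with collagen XI, the partner chains of Col9a3 were low: Col9a1 had 28, 21 and 10 reads and Col9a2 had 12, 9 and 8 reads, or 0.0838 ± 0.0342 and 0.0687 ± 0.0117 of Col9a3 per kilobase. Col14a1, found on fibrils of skin and tendon, had 3.51, 2.52 and 3.97 CPM, and Col16a1 had 2.13, 2.66 and 2.63 CPM. Col19a1 had 16, 33 and 13 reads, with thymus 2 apart from the other thymi, and Col22a1 had 9, 9 and 5 reads.

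Col7a1, the collagen of the anchoring fibrils under squamous epithelium, had 9.22, 7.80 and 12.2 CPM in thymus 1, 2 and 3. It was highest in thymus 3 and lowest in thymus 2, the reverse of Col6a1. Among the transmembrane collagens Col23a1 had 4.50, 4.43 and 3.48 CPM. Col17a1, which anchors epithelial cells to the basement membrane at hemidesmosomes, had 1.51, 2.18 and 2.47 CPM. Under 1 CPM in every library were the transmembrane Col13a1 (4, 8 and 2 reads) and Col25a1 (4, 2 and 5 reads), Col26a1 (3, 5 and 4 reads), Col28a1 (9, 7 and 9 reads), and the short-chain collagens Col8a1 (11, 12 and 11 reads), Col8a2 (10, 10 and 11 reads) and Col10a1 (7, 14 and 4 reads). Col10a1, a marker of hypertrophic cartilage, lies within Nt5dc1, which is on the opposite strand and had 27.2 CPM.

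The order of the levels was in most places not resolved by 3 libraries. Among the 20 highest collagens by CPM, the ranges over the thymi overlapped for 18 of 19 neighbouring pairs, the exception being Col1a2 above Col9a3. Per kilobase 14 of 19 pairs overlapped, and the pairs apart were Col4a1 above Col4a2, Col6a2 above Col9a3, Col9a3 above Col5a2, Col5a2 above Col20a1, and Col5a3 above Col5a1.

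With 1 group there is no contrast, and the spread between the 3 thymi is what can be tested. No collagen was called more variable than genes of similar level: edgeR's quasi-likelihood test with Benjamini-Hochberg adjustment at 0.05 called 0 of 33, beside a background of 0.0604% of 16548 genes. With 3 libraries, a collagen that was not called is not shown to be steady between thymi. At an unadjusted p under 0.05 there were 2 collagens, Col6a1 and Col6a2 (edgeR adjusted p = 0.984 each), beside a background of 4.42%. DESeq2 marked 0 of 33 as dispersion outliers, beside 0.489%. Against counting noise alone, the Poisson goodness of fit in edgeR called 12 of 33 after Benjamini-Hochberg adjustment, and the same test called 43.4% of all genes tested.

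The 12 collagens called against counting noise were Col6a1, Col6a2, Col15a1, Col18a1, Col7a1, Col5a3, Col3a1, Col11a2, Col4a1, Col1a2, Col14a1 and Col19a1. Thymus 2 was the highest library for 7 of them, namely Col6a1, Col6a2, Col15a1, Col18a1, Col5a3, Col4a1 and Col19a1, and thymus 3 for the other 5. Among all 7188 genes called in that test, thymus 2 was the highest library for 37.4% and thymus 3 for 45.4%. The adjusted p of that goodness of fit test (edgeR) was 1.45e-11 for Col6a1 and 2.83e-11 for Col6a2. Without thymus 2 the test called 6 collagens, 5 of which were among the 12, and the background fell to 26.2%. Without thymus 1 it called 11 (background 39.7%) and without thymus 3 it called 8 (background 22.3%).

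The summed collagen level was highest in thymus 2, at 317 CPM. The median deviation of the 33 tested collagens from their own mean over the 3 libraries was -0.04, 0.11 and -0.06 on the log2 scale in thymus 1, 2 and 3, while the median over all genes tested was 0.00, 0.00 and -0.01. Of the 33 genes, 15 were highest in thymus 2, beside a background of 38%; 9 were highest in thymus 1 (background 24.1%) and 9 in thymus 3 (background 37.9%). The lowest library was thymus 1 for 11 of them (background 24.3%), thymus 2 for 8 (background 36%) and thymus 3 for 14 (background 39.7%). The collagens had a higher GC content than all genes tested, with a median of 55.7% against 49.4%, and more exon, with a median of 7464 bases against 3930 bases. After a correction for GC content in each library the median deviation in thymus 2 was 0.03, and once exon length was corrected as well it was -0.00012. In thymus 1 and 3 the medians after both corrections were 0.03 and 0.04.

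By class, the libraries stood in different orders. All 6 collagen VI genes were highest in thymus 2, with a median deviation of 0.20 there and of -0.19 in thymus 3; the value in thymus 2 was 0.16 after the GC correction and 0.02 once exon length was corrected as well. Both multiplexins were highest in thymus 2 and lowest in thymus 3, at medians of 0.26 and -0.22, and with both corrections these were 0.23 and -0.22. The summed level of collagen IV was also highest in thymus 2, as was Col4a1, while the other 4 tested genes of the class were highest in thymus 1; of the 5, the goodness of fit test called Col4a1. The fibrillar collagens had medians of -0.04, 0.03 and -0.03 in thymus 1, 2 and 3. After the GC correction these were 0.01, 0.01 and 0.02. With exon length corrected as well they were -0.02, -0.21 and 0.12, with thymus 2 lowest and thymus 3 highest. Each such value describes 1 library per thymus and has no test.

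Markers of other cell types were summed in the same libraries. The edgeR quasi-likelihood test called 0 genes in each of the 6 lists that follow. At an unadjusted p under 0.05 in that test there were 6 of 7 fat and 3 of 4 mesothelium markers, beside a background of 4.42%. There were also 2 of 10 mesenchyme, 1 of 9 thymic epithelium, 0 of 7 tested pericyte and smooth muscle and 0 of 9 endothelium markers. The goodness of fit test called 7 of 7 fat, 6 of 7 tested pericyte and smooth muscle, 3 of 9 endothelium, 4 of 10 mesenchyme, 4 of 4 mesothelium and 7 of 9 thymic epithelium markers, beside the background of 43.4%. The 7 fat markers summed to 206, 299 and 213 CPM in thymus 1, 2 and 3. Of the 7, 6 were highest in thymus 2 (background 38%). The pericyte and smooth muscle markers summed to 105, 115 and 99.3 CPM, with 6 of the 7 tested highest in thymus 2 (background 38%). The 9 endothelium markers summed to 129, 143 and 119 CPM, with 4 highest in thymus 2, near the background of 38%. Most of the endothelium sum was Pecam1, at 102, 113 and 92.0 CPM. In contrast, the 10 mesenchyme markers summed to 353, 345 and 329 CPM, with 1 highest in thymus 2 and 5 lowest there (background 36%). The 1 highest there was Gsn, the largest part of that sum, with 189, 215 and 161 CPM. The 4 mesothelium markers summed to 14.5, 10.2 and 21.6 CPM, with all 4 lowest in thymus 2. The 9 thymic epithelium markers summed to 2044, 2073 and 2205 CPM. The largest parts of that sum were Prss16 (886, 865 and 963 CPM) and Ccl25 (646, 647 and 755 CPM), both highest in thymus 3. Of the 9, however, 5 were highest in thymus 2 (background 38%) and 5 were lowest in thymus 3 (background 39.7%). No gene of these lists was at 0 in a library, and the part of any such cells in the collagen levels was not tested. Schwann cell markers (150.8 ± 12.2 CPM, mostly Mbp) and skeletal muscle markers (36.2 ± 1.48 CPM, mostly Mylpf) were present too.

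**Figure D4:**
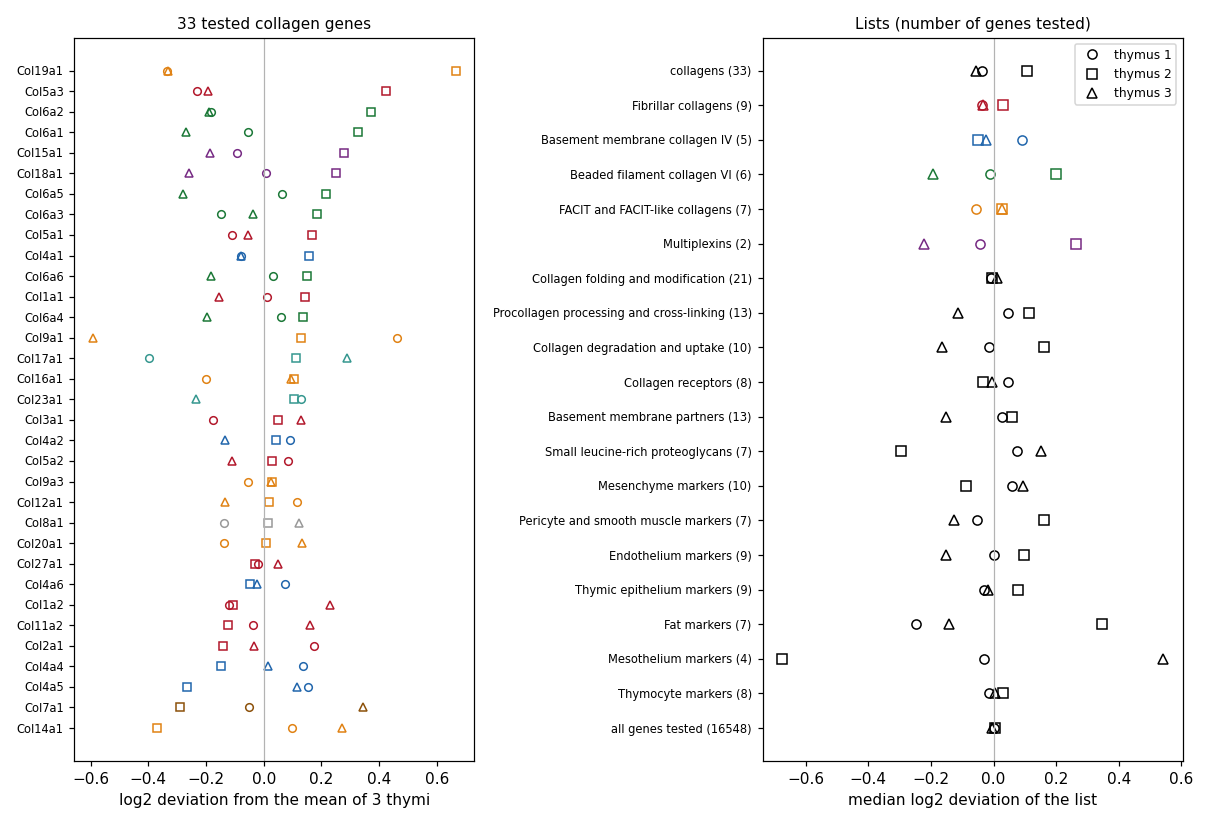
Deviation of log2 CPM from the gene's mean over the 3 thymi, 1 symbol per library: left, the 33 tested collagens in order of their value in thymus 2; right, the median over each gene list, with the number of genes tested. Collagen VI, the multiplexins, fat markers and pericyte markers lie highest in thymus 2, and mesothelium markers and small leucine-rich proteoglycans lowest there.

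The genes that act on collagens were examined as lists. For folding and modification all 21 genes passed the filter and 19 reached 1 CPM in each library, led by P4hb (243 CPM), the shared subunit of prolyl hydroxylase, Ppib (175 CPM), a prolyl isomerase, and Mia3 (120 CPM), which loads procollagen for export. The 15 genes of procollagen processing and cross-linking summed to 69.0 ± 6.03 CPM, led by the cross-linking enzymes Tgm2 (21.7 CPM) and Lox (9.40 CPM) and the protease Bmp1 (8.21 CPM). Degradation and uptake genes were led by the inhibitor Timp2 (83.5 CPM) and the proteases Mmp2 (32.1 CPM) and Mmp14 (26.8 CPM). Among collagen receptors, the integrin subunit Itgb1 had 271 CPM, Adgrg1, a receptor of collagen III, 37.2 CPM and the kinase Ddr1 24.5 CPM.

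The partners of collagen IV in basement membranes were led by the proteoglycan Agrn (32.9 CPM) and the laminin chains Lamc1 (28.2 CPM) and Lamb3 (28.0 CPM). The small leucine-rich proteoglycans, which bind fibril surfaces, were led by Dcn (98.2 CPM), Bgn (17.1 CPM) and Lum (14.5 CPM). Their median deviation was 0.07, -0.29 and 0.15 in thymus 1, 2 and 3, and the value in thymus 2 was -0.14 after the GC correction and -0.04 once exon length was corrected as well. The members differed: Dcn had 107.6, 78.9 and 108 CPM, lowest in thymus 2, while Bgn had 13.9, 21.5 and 15.8 CPM, highest there. The edgeR quasi-likelihood test called 0 genes in each of these 6 lists. Against counting noise, the goodness of fit test called 7 of 21 tested folding genes, 3 of 13 processing genes, 7 of 10 degradation genes, 3 of 8 receptors, 5 of 13 basement membrane partners and 6 of 7 proteoglycans, beside the background of 43.4%. At an unadjusted p under 0.05 in the quasi-likelihood test there were 3 of 10 degradation genes and 3 of 7 proteoglycans, beside a background of 4.42%. There was also 1 of 21 folding genes, near that background, and there were 0 processing genes, receptors and basement membrane partners.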

How the data were processed

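The files that the authors deposited, 1 per thymus, hold unnormalised read counts for each gene in STAR's gene-counting layout. The submitters' processing notes name STAR 2.5.3a, DESeq2 and the GRCm38 build; which annotation release was counted is not given in the sources used here. For this work the reverse-strand column was used, which holds a transcript's own reads with the TruSeq Stranded mRNA kit named in the labels. Uniquely mapped reads only are counted in that layout, so a sequence that occurs at more than 1 place lowers a count. Summary classes that name no gene stayed out of library sizes: in thymus 1, 2 and 3, multimapping reads were 14.4%, 14.0% and 15.5% of all reads, reads on no feature 14.4%, 13.5% and 14.6%, unmapped reads 2.38%, 2.31% and 2.43%, and ambiguous reads 1.06%, 1.10% and 1.05%.

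Of 52636 identifiers, 52489 matched GENCODE M21, the source of symbols, 1-based coordinates, exon lengths (union of exons) and coding sequences. CPM used TMM factors of 1.00, 1.03 and 0.971 (edgeR 4.0.16, R 4.3.3; DESeq2 1.42.0 as an alternative). The edgeR filter (minimum count 10, total 15) left 16548 genes. The variability test was an intercept-only robust quasi-likelihood fit, each gene's quasi-dispersion over the trended prior being referred to the F distribution, one-sided. Counting noise was tested by goodness of fit at a dispersion of 0, one-sided. P-values were adjusted by Benjamini-Hochberg over all genes tested, and both tests were checked on simulated counts. There the variability test missed most genes raised 2-fold in 1 library and found most raised 4-fold, with some false calls. The goodness of fit test called none where only counting noise was simulated. Deviations used log2 CPM with a prior count of 2. Reads carry no molecular identifiers, so the 3-count limit covers counting error only. The longest GGN run and coding segments were taken from each gene's longest coding transcript.

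The members, the gene lists, the markers and the tests were chosen with earlier results of these data known. The genes named are the 20 collagens with the highest mean CPM, any collagen that a variability test called, chains that share a protein type or promoter region with these, the remaining collagens by their reads, and the 3 highest members of each other list. Alternatives covered scaling, strand column, filters, prior, test, length, GC content and leaving out each library.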

Additional observations from a re-analysis of the deposited data

Results flagged for a closer look

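Reads on the strand opposite to a collagen gene lie outside the counts used above. Over the 44 collagens there were 231 of them beside 25186 reads on the gene's own strand (0.909%), and 17 genes had none. In 4 genes such reads exceeded 3 in every library. Col18a1 had 12, 12 and 16 opposite reads in thymus 1, 2 and 3 (40 in all) and overlaps Slc19a1, a folate transporter gene on the opposite strand with 15.05 CPM. Col15a1 had 11, 8 and 15 (34 in all), and the start of Gm12426, an antisense transcript with a mean of 0.0113 CPM, overlaps it. Col8a2 had 9, 9 and 13 (31 in all), as many as its 10, 10 and 11 reads on its own strand, and Adprhl2, 1717 bases away on the opposite strand, had 44.2 CPM. Col27a1 had 12, 10 and 6 (28 in all) beside 2415 reads on its own strand. The source of these reads was not tested. Groups of 3 libraries are too small for a test of single outlying samples.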

How the results depend on the processing

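For the counts of collagens called, the count at 1 CPM or more, the summed level and the median deviations, 51 of 54 alternatives stayed within a limit of 1.5 times for a count, 1 SD over libraries for the sum and 0.0879, the SD of the 3 medians, for a median deviation. The count of collagens that varied beyond counting noise was 12, and 6 to 11 with 1 library left out, the lowest without thymus 2. When GC content and exon length were both corrected for, the median deviation was -0.00012 in thymus 2 and 0.038 in thymus 3; the cause was not tested. The limit of 0.0879 is wide beside the medians themselves: in thymus 1 the median was -0.036, and 0.0088 with the GC correction and 0.027 with both, and in thymus 2 it was 0.11, 0.027 with the GC correction, 0.048 over genes with a mean of at least 5 CPM and 0.065 with unstranded counts. The count at 1 CPM or more was 27 under every alternative run, and the quasi-likelihood count was 0 under every alternative run, while the background was 137 genes without thymus 3 and 285 with no filter, against 10. The summed level lay between 284 and 306 CPM. Of 70 alternative chain ratios, 10 moved by more than 1 SD, 8 of them with the longest transcript as the length and 2 with unstranded counts; Col8a1 over Col8a2 was 0.630, 0.933 with the longest transcript and 0.329 with unstranded counts. The alternatives for Col3a1 over Col1a2 and Col11a2 over Col2a1 were chosen after seeing the data. No paired analysis was possible because the libraries form 1 group. Depth limits the 11 collagens that failed the filter, whose ratios rest on few reads, and 3 libraries limit every order of neighbouring levels.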
